A study of Homo sapiens with 12 samples.

Results

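The mitosis genes described here are 42 genes that cells need to enter, carry out and leave mitosis. They were chosen by name from an RNA-sequencing data set of MDA-MB-231 cells, and all 42 were found among the 24331 features of the expression table. BUB1B shares its feature with PAK6, so the values given for BUB1B include both genes. MDA-MB-231 is a human breast cancer cell line of mesenchymal appearance. Wild-type cells (WT) were compared with ΔCRE cells (KO in the sample labels), in which CRISPR/Cas9 had removed NFAT and NF-κB binding sites from the promoter of ETS1, and both were stimulated with PMA and Ionomycin for 0, 6 and 24 h. PMA is a phorbol ester that activates protein kinase C, and Ionomycin is a calcium ionophore. Each of the 6 conditions had 2 biological replicates, so 12 libraries were sequenced, and every condition was in the same cell line. The ΔCRE cells were selected as clones by genomic PCR. How many clones stand behind the ΔCRE libraries is not stated, so a difference between ΔCRE and WT cells cannot be told apart from a difference between clones.

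Mitosis is started by CDK1 bound to cyclin B and is opened by the phosphatases of the CDC25 family and by the kinase PLK1. Chromosomes then attach to spindle microtubules at their kinetochores, and the spindle checkpoint holds the cell until the attachments are complete. The anaphase-promoting complex, with CDC20 and UBE2C, next marks securin and cyclins for destruction, sister chromatids part, and the cell divides by cytokinesis. Most of these genes are transcribed in late S, G2 and M phase and are nearly silent in resting cells. In a culture their RNA level therefore follows both how many cells are in these phases and how much RNA each such cell holds, and in bulk libraries fewer cells and less RNA per cell cannot be told apart. Protein kinase C activators are known to slow or stop the cycle of many cell types in G1 or G2.

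ETS1, the targeted gene, stood in WT cells at 24.0 and 23.7 FPKM before stimulation, at 139.2 and 145.2 FPKM after 6 h and at 36.2 and 39.7 FPKM after 24 h. Its level in ΔCRE cells was 16.5 FPKM at 0 h in replicate 2, 62.8 and 62.2 FPKM at 6 h and 29.3 and 30.7 FPKM at 24 h, each below both WT libraries of the same time. FPKM scales the fragments of a gene by transcript length and by the mapped fragments of the library, so levels can be compared between genes, but sequencing depth is unknown for every library. The library labelled ΔCRE 0 h replicate 1 stood apart. Its FPKM values summed to 1423335 against 566255 to 651080 in the other 11 libraries, and its ETS1 level was 5.08 FPKM. In it 9 markers of gut epithelium summed to 3654 FPKM against 2.18 to 3.41 FPKM elsewhere, where CDX1, CDX2 and VIL1 were at 0. Its 7 markers of MDA-MB-231 cells, with VIM at 1200 FPKM, summed to 9883 FPKM against 3947 to 5666 FPKM elsewhere. Of this sum S100A4 held 4717 FPKM, a gene at 41.7 FPKM or less elsewhere. Its fibroblast markers summed to 68.9 FPKM and its leukocyte markers to 114.0 FPKM. It was therefore kept out of all comparisons below, and ΔCRE cells at 0 h are 1 library (replicate 2) that is assumed to vary like the other groups. With it added, the median changes of the mitosis genes in WT cells stayed the same, but 5, 15 and 4 of the 42 genes were called for 6 h against 0 h, 24 h against 0 h and 24 h against 6 h, instead of 33, 42 and 36, and 8 instead of 38 in ΔCRE cells for 24 h against 6 h. In the 11 libraries kept, 7 of 7 markers of MDA-MB-231 cells, VIM and CD44 among them, were at 1 FPKM or more. Of 6 genes taken to be low or absent in this line, PGR was at 0 and 4 were under 1 FPKM, but EPCAM (2.02 to 3.38 FPKM) and GATA3 (1.76 to 3.32 FPKM) were not. Fibroblast markers summed to between 0.721 and 1.65 FPKM, with DCN and LUM at 0. Leukocyte markers summed to between 21.4 and 91.9 FPKM, with CD3E at 0 and nearly all of the sum from CD68, which was at 66.6 FPKM or more in the 4 libraries of 24 h and at 34.2 FPKM or less in the others. The other leukocyte markers, PTPRC and CD14, were at most 0.028 and 0.584 FPKM in the 11 libraries. The part of CD68-expressing cells in the changes below was not tested.

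Changes were tested with limma on log2(FPKM + 1) over the 11256 features with a mean of at least 1 FPKM, and a feature was called at a Benjamini-Hochberg adjusted p under 0.05. Fold changes below are log2 values on that scale with their standard error (SE), and they understate the change of genes with low FPKM. All 42 mitosis genes passed the filter on low values.

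The summed FPKM of the 42 genes made up 0.618% and 0.649% of all FPKM in unstimulated WT cells, 0.506% and 0.508% at 6 h and 0.382% and 0.390% at 24 h. The share in ΔCRE cells was 0.670% at 0 h, 0.536% and 0.554% at 6 h and 0.391% and 0.405% at 24 h. The 3 time points did not overlap in either genotype. Mean levels over the 11 libraries differed widely between the genes, from 6.16 FPKM for HMMR and 11.3 FPKM for CENPE to 405.0 FPKM for PTTG1 and 417.4 FPKM for UBE2C.

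**Figure D1:**
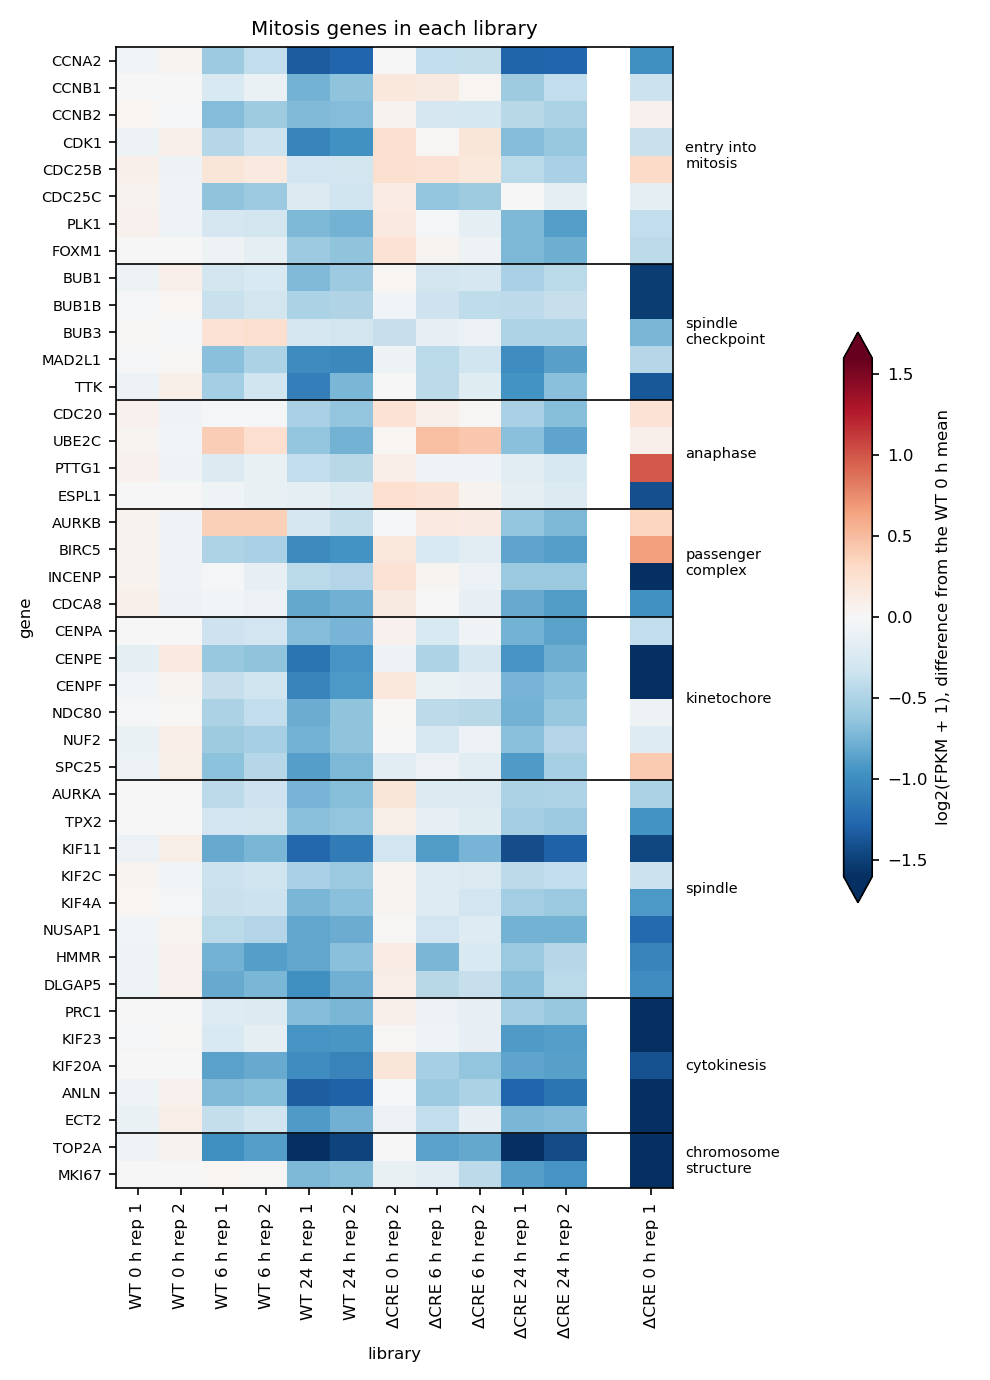
Each row is 1 mitosis gene, grouped by role, and each column is 1 library. Colour gives log2(FPKM + 1) minus the mean of the 2 WT libraries at 0 h, cut at ±1.6, with blue for lower values. The 24 h columns are the bluest in both genotypes, and the ΔCRE 0 h replicate 1 column, set apart at the right, does not follow the others.

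In WT cells all 42 mitosis genes fell between 0 and 24 h. The median change was -0.72, against -0.02 over all features tested, and the members ranged from -1.55 for TOP2A to -0.19 for ESPL1. Of all features 28.2% were called lower in this comparison. For each of the 42 genes both 24 h libraries lay below both 0 h libraries, while 40.2% of all features were separated in that direction. When each library in turn was left out, between 40 and 42 of the genes were called. ESPL1, with an adjusted p of 0.0432, was the weakest call and was lost under 12 of 20 alternatives.

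Among the genes of mitotic entry, CDK1, the kinase that drives mitosis, was 93.4 and 104.2 FPKM at 0 h, 71.5 and 77.9 FPKM at 6 h and 46.6 and 49.8 FPKM at 24 h in WT cells. CCNA2, the cyclin A that acts from S phase to early mitosis, was 31.2 and 33.4 FPKM at 0 h, 21.3 and 24.4 FPKM at 6 h and 12.2 and 12.85 FPKM at 24 h. Neither gene had overlapping time points, and at 24 h CDK1 stood at 48.8% and CCNA2 at 38.9% of the 0 h mean. CCNB1, the main cyclin partner of CDK1 in mitosis, was 150.9 and 150.7 FPKM at 0 h, 127.4 and 140.3 FPKM at 6 h and 88.8 and 95.9 FPKM at 24 h. Its change from 0 to 6 h was -0.17 ± 0.079 and did not pass the test (adjusted p = 0.109), whereas it fell by 24 h (-0.70 ± 0.079, adjusted p = 0.000138). CCNB2, the other mitotic cyclin B, had its change earlier, with 119.0 and 114.6 FPKM at 0 h, 71.8 and 78.2 FPKM at 6 h and 71.2 and 71.7 FPKM at 24 h. Nearly its whole change lay before 6 h (-0.63 ± 0.055, adjusted p = 4.44e-05), and between 6 and 24 h it differed by only -0.07 ± 0.055 (adjusted p = 0.342). The mitotic kinase PLK1 was 91.1 and 82.3 FPKM at 0 h, 72.0 and 70.6 FPKM at 6 h and 52.3 and 50.8 FPKM at 24 h and fell in each interval. Its call at 6 h was lost when WT 0 h replicate 1 or either WT 6 h library was left out. FOXM1, a transcription factor that drives many genes of G2 and M phase, was 84.3 and 84.5 FPKM at 0 h, 79.5 and 76.3 FPKM at 6 h and 55.9 and 53.7 FPKM at 24 h. The change of FOXM1 to 6 h did not pass the test (-0.11 ± 0.059, adjusted p = 0.151), and its fall from 6 to 24 h was -0.50 ± 0.059 (adjusted p = 0.00029).

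The CDC25 phosphatases, which remove inhibitory phosphates from CDK1, moved apart. CDC25C was 21.4 and 19.6 FPKM at 0 h, 12.75 and 13.3 FPKM at 6 h and 17.3 and 16.3 FPKM at 24 h, so both 6 h libraries lay lowest, with the 24 h libraries between them and those of 0 h. It fell by 6 h (-0.61 ± 0.073, adjusted p = 0.000253) and was the only 1 of the 42 genes called higher at 24 h than at 6 h (0.34 ± 0.073, adjusted p = 0.00536). Its fall over the whole 24 h (-0.27 ± 0.073, adjusted p = 0.0123) was lost when WT 0 h replicate 1 or WT 24 h replicate 2 was left out. CDC25B, whose product acts earlier in G2, was 43.1 and 38.7 FPKM at 0 h, 46.8 and 45.4 FPKM at 6 h and 32.9 and 33.0 FPKM at 24 h. At 6 h its change was 0.17 ± 0.064 (adjusted p = 0.058), and it fell from 6 to 24 h (-0.47 ± 0.064, adjusted p = 0.000536).

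All 5 genes of the spindle checkpoint were lower at 24 h than at 0 h, where 28.2% of all features were called lower. The checkpoint kinase BUB1 was 44.5 and 49.6 FPKM at 0 h, 38.2 and 39.6 FPKM at 6 h and 28.3 and 31.1 FPKM at 24 h, and the 3 time points did not overlap. MAD2L1, which binds CDC20 and holds it inactive, fell to 48.3% of its 0 h mean by 24 h (-1.02 ± 0.075, adjusted p = 1.37e-05). TTK and BUB1B fell over the same time by 0.91 and 0.50 on the log2 scale. BUB3, which brings BUB1 and BUB1B to kinetochores, went up before it went down, with 152.9 and 149.4 FPKM at 0 h, 177.6 and 181.2 FPKM at 6 h and 125.3 and 123.0 FPKM at 24 h. It rose at 6 h (0.25 ± 0.045, adjusted p = 0.00259), a call that was lost when FPKM was rescaled to TPM (0.12, adjusted p = 0.0617), and was below its 0 h level at 24 h (-0.28 ± 0.045, adjusted p = 0.000938).

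None of the 4 genes that act at anaphase was called lower at 6 h, and all 4 were called lower at 24 h. Of all features 21.1% were called lower at 6 h and 28.2% at 24 h, and 4 genes are too few to set the 6 h count apart from that share. UBE2C, the ubiquitin-conjugating enzyme of the anaphase-promoting complex, was 442.5 and 416.0 FPKM at 0 h, 564.3 and 515.2 FPKM at 6 h and 275.7 and 252.9 FPKM at 24 h. Both 6 h libraries were above and both 24 h libraries below the 0 h libraries, and its fall from 6 to 24 h (-1.03 ± 0.079, adjusted p = 3.5e-05) was the largest of the 42 genes in that interval. The rise of UBE2C at 6 h (0.33 ± 0.079, adjusted p = 0.01) lost its call without WT 0 h replicate 2 or without WT 6 h replicate 1. CDC20, the activator of the same complex, was 156.7 and 143.1 FPKM at 0 h, 147.1 and 146.4 FPKM at 6 h and 104.2 and 96.3 FPKM at 24 h. Its 0 and 6 h libraries overlapped, although under TPM it was called lower at 6 h (-0.15, adjusted p = 0.0352), and the fall came between 6 and 24 h (-0.55 ± 0.074, adjusted p = 0.000537). PTTG1 encodes securin and ESPL1 encodes separase, the protease that securin restrains. Both 6 h libraries of PTTG1 and of ESPL1 lay below both 0 h libraries, but the changes of -0.17 and -0.09 did not pass the test (adjusted p = 0.0595 and 0.304). By 24 h PTTG1 fell to 74.6% of its 0 h mean and ESPL1 to 86.8%, the smallest fall of all 42 genes.

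The chromosomal passenger complex corrects faulty attachments and later steers cytokinesis, and its 4 subunits moved differently in the first 6 h. The kinase subunit AURKB was 93.7 and 87.1 FPKM at 0 h, 118.2 and 118.5 FPKM at 6 h and 74.8 and 69.4 FPKM at 24 h. It had the highest change of the 42 genes at 6 h (0.39 ± 0.062, adjusted p = 0.00132) and then fell below its starting level (24 h against 0 h -0.32 ± 0.062, adjusted p = 0.00251). BIRC5, the survivin subunit, was instead 74.5 and 68.9 FPKM at 0 h, 50.4 and 49.7 FPKM at 6 h and 34.9 and 36.3 FPKM at 24 h and fell in both intervals. INCENP and CDCA8, the scaffold and borealin subunits, had overlapping libraries at 0 and 6 h and fell by 0.36 and 0.73 on the log2 scale from 6 to 24 h.

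All 6 genes of the kinetochore had fallen by 6 h, where 21.1% of all features were called lower. CENPF, a large protein of the outer kinetochore, was 39.8 and 42.7 FPKM at 0 h, 31.8 and 32.7 FPKM at 6 h and 19.3 and 21.2 FPKM at 24 h. CENPE, the kinesin that carries chromosomes to the spindle equator, was 14.5 and 18.2 FPKM at 0 h, 10.3 and 10.0 FPKM at 6 h and 6.70 and 7.97 FPKM at 24 h. At 24 h they stood at 49.2% and 44.9% of their 0 h means. NDC80, NUF2 and SPC25 are subunits of a single complex that grips microtubules, and their changes at 6 h were -0.45, -0.55 and -0.56. From 6 to 24 h NDC80 fell by a further 0.27, while NUF2 (-0.15, adjusted p = 0.236) and SPC25 (-0.24, adjusted p = 0.161) did not pass the test. CENPA, the histone H3 variant that marks centromeres, fell by 0.32 at 6 h and by 0.72 at 24 h.

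All 8 spindle genes were also lower at 6 h, again against 21.1% of all features called lower. AURKA, the kinase of spindle poles, was 132.5 and 133.3 FPKM at 0 h, 99.6 and 105.0 FPKM at 6 h and 78.7 and 82.6 FPKM at 24 h. DLGAP5, which stabilises microtubules near chromosomes, was 91.3 and 100.9 FPKM at 0 h, 54.6 and 57.5 FPKM at 6 h and 48.0 and 55.8 FPKM at 24 h, and HMMR, a spindle assembly factor, was 8.12 and 8.98 FPKM at 0 h, 4.66 and 4.19 FPKM at 6 h and 4.34 and 4.999 FPKM at 24 h. For AURKA the 3 time points did not overlap, whereas for DLGAP5 and HMMR the 6 and 24 h libraries overlapped and the difference lay before 6 h. The motor KIF11, which pushes the spindle poles apart, fell to 42.5% of its 0 h mean by 24 h, the largest fall among spindle genes. TPX2, KIF2C, KIF4A and NUSAP1 fell over 24 h by 0.56 (KIF2C) to 0.81 (NUSAP1).

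In the cytokinesis group, KIF20A, a kinesin of the central spindle, was 84.1 and 85.2 FPKM at 0 h, 46.2 and 47.8 FPKM at 6 h and 41.9 and 39.8 FPKM at 24 h. KIF23, the kinesin of the centralspindlin complex, was 71.4 and 73.8 FPKM at 0 h, 61.1 and 65.5 FPKM at 6 h and 37.4 and 37.5 FPKM at 24 h. By 6 h KIF20A had fallen by 0.84 and KIF23 by 0.20, and from 6 to 24 h KIF20A fell by 0.20 and KIF23 by 0.74, so the order was turned round. ANLN, the scaffold of the contractile ring, fell to 39.8% of its 0 h mean, ECT2 to 54.8% and PRC1, which bundles the central spindle, to 60.8%. TOP2A, the topoisomerase that untangles sister chromatids, was 146.2 and 159.4 FPKM at 0 h, 76.7 and 82.3 FPKM at 6 h and 49.2 and 54.0 FPKM at 24 h. Its falls were the largest of the 42 genes on the log2(FPKM + 1) scale at 6 h (-0.93 ± 0.083, adjusted p = 5.07e-05), where HMMR fell slightly further in FPKM (to 51.7% of its 0 h mean against 52.0%), and at 24 h (-1.55 ± 0.083, adjusted p = 2.52e-06). MKI67, which encodes the proliferation marker Ki-67, was 70.6 and 71.8 FPKM at 0 h, 73.0 and 72.3 FPKM at 6 h and 42.8 and 44.1 FPKM at 24 h. It changed by 0.03 ± 0.075 at 6 h (adjusted p = 0.78), a value that turned negative under TPM (-0.092) and under quantile normalization (-0.085), and fell from 6 to 24 h (-0.73 ± 0.075, adjusted p = 0.000139).

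**Figure D2:**
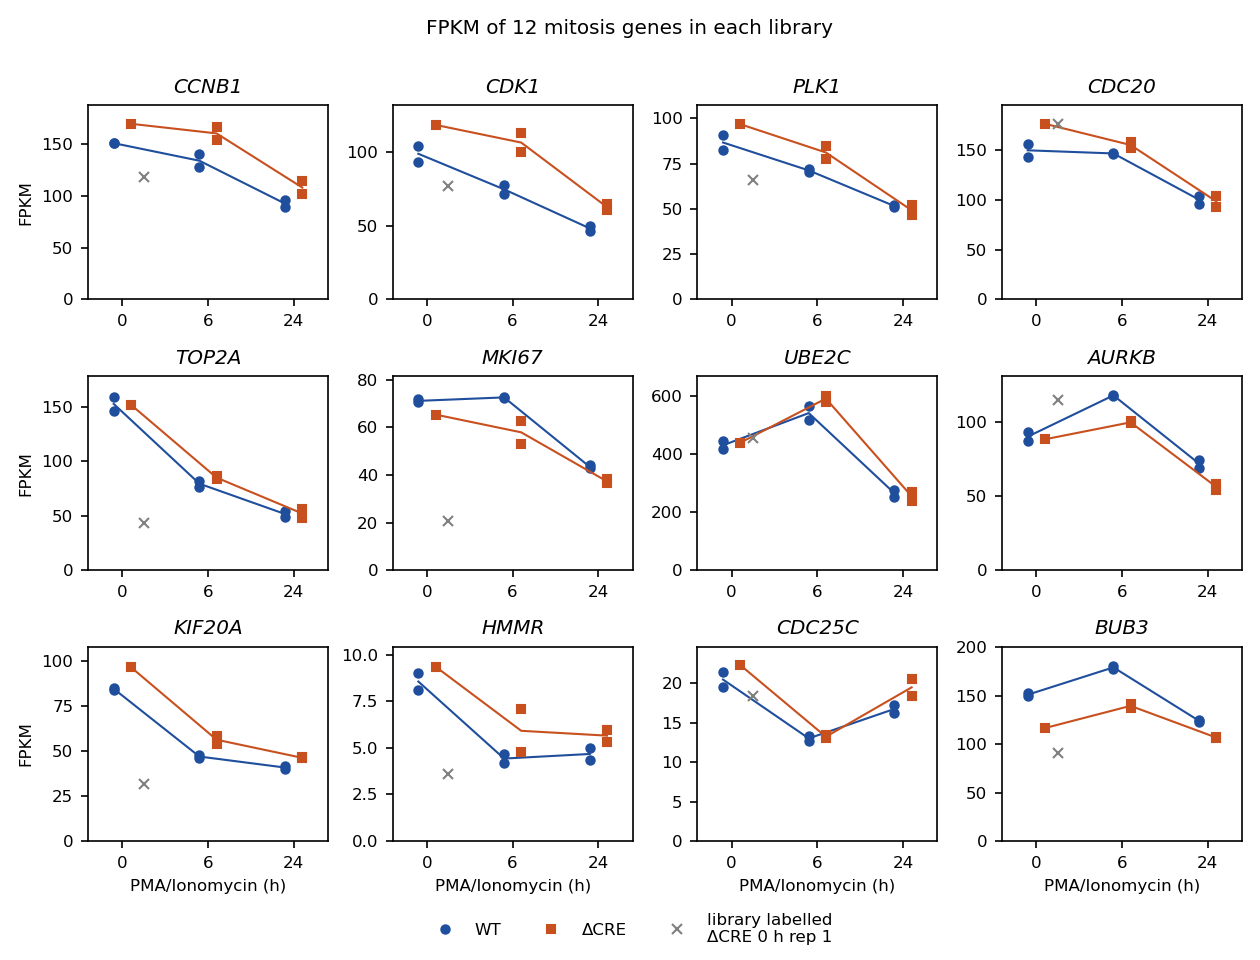
Each panel shows the FPKM of 1 gene (linear axis from 0) against hours of PMA/Ionomycin (0, 6 and 24 h drawn at equal spacing), with blue circles for WT libraries, orange squares for ΔCRE libraries, lines through the means and a grey cross for the library labelled ΔCRE 0 h replicate 1. UBE2C, AURKB and BUB3 have their highest means at 6 h, CDC25C is lowest at 6 h, and HMMR and KIF20A are close to their 24 h level by 6 h.

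The counts over the 42 genes differed between the 2 intervals. At 6 h of stimulation 30 of the 42 genes had fallen, 3 had risen (AURKB, UBE2C and BUB3) and 9 did not pass the test, with a median change of -0.35. Over all features 21.1% were called lower and 23.3% higher, with a median of -0.001. From 6 to 24 h 35 genes fell, 1 rose (CDC25C) and 6 did not pass the test, with a median of -0.43 against -0.04 over all features, of which 26.3% were called lower and 20.5% higher. Rescaling FPKM to TPM moved the median of all features at 6 h from -0.001 to -0.117. Under TPM 37 of the genes were called lower and 2 higher at 6 h, 28 lower and 1 higher from 6 to 24 h, and the median of the members minus that of all features was -0.36 at 6 h and -0.40 from 6 to 24 h (-0.35 and -0.39 with FPKM). Of all calls at 6 h 52.5% were higher with FPKM, 35.0% with TPM and 44.2% with quantile normalization, and from 6 to 24 h 43.7%, 64.3% and 50.2%.

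To describe the timing of each gene, its log2 change at 6 h was divided by its change at 24 h. This measure was chosen after the values were seen, and it carries no test. With FPKM the share was above 50% for 19 of the 42 genes and under 20% for 9, with a median of 46.2%. The shares depend on scaling: with TPM and with quantile normalization, compared for this measure after the data were seen, 28 genes were above 50% and 5 under 20%, and the median with TPM was 62.5%. With FPKM the medians by role were 60.8% for the kinetochore, 58.0% for the spindle, 47.2% for the checkpoint, 42.3% for cytokinesis, 37.4% for entry, 28.0% for chromosome structure, 22.4% for anaphase and 14.0% for the chromosomal passenger complex. With TPM they ran from 73.8% for the kinetochore to 34.4% for the chromosomal passenger complex. With FPKM the earliest were HMMR (108.4%), CCNB2 (90.3%), DLGAP5 (87.2%) and KIF20A (80.9%), together with CDC25C, whose 6 h level lay below its 24 h level. The latest were the 5 genes at or above their 0 h mean at 6 h (AURKB, BUB3, CDC25B, UBE2C and MKI67, the last of which was below it with TPM), then CDC20 (5.0%), CDCA8 (8.7%), FOXM1 (18.5%) and INCENP (19.1%).

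Genes of late G2 and M phase are known for 2 promoter elements, the cell cycle genes homology region (CHR, core TTTGAA), through which the DREAM and MuvB complexes act, and CCAAT boxes, which bind NF-Y. The promoters of 6 genes towards either end of the time order, not the 6 most extreme, are printed to show these elements beside the values. CCNB2, HMMR and KIF20A fell mostly before 6 h, and CDC20, CDCA8 and MKI67 mostly after it. Each line holds the 150 bases before the annotated start, from RefSeq on GRCh38.p14 (the expression table uses hg19, so no position is shared between them), 5′ to 3′ on the strand of the gene. Capitals mark TTTGAA or its reverse complement TTCAAA and CCAAT or its reverse complement ATTGG, and elements that overlap run together.
CCNB2 (chr15:59104996-59105145, plus strand): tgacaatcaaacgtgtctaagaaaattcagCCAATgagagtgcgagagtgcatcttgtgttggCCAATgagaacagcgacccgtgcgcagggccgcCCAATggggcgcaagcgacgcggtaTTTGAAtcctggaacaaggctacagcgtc
HMMR (chr5:163460482-163460631, plus strand): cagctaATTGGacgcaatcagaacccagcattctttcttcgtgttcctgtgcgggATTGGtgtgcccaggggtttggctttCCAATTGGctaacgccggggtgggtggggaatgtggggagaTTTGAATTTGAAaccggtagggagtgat
KIF20A (chr5:138178962-138179111, plus strand): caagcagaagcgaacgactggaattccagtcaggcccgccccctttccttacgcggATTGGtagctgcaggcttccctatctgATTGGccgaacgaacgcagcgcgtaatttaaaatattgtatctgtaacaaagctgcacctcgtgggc
CDC20 (chr1:43358831-43358980, plus strand): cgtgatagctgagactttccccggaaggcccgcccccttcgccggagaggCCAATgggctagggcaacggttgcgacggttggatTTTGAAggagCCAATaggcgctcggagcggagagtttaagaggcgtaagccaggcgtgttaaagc
CDCA8 (chr1:37692366-37692515, plus strand): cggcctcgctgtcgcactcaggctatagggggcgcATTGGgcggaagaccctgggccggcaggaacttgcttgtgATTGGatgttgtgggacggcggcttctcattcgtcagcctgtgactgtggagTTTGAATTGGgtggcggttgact
MKI67 (chr10:128126424-128126573, minus strand): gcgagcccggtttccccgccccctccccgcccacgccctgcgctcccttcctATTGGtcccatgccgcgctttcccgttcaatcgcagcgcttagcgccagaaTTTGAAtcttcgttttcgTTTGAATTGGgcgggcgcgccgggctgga
TTTGAA stood within 65 bases of the start in 5 of these 6 promoters, 2 times in a row in HMMR and 2 times in MKI67, and was absent from the printed stretch of KIF20A, which stood at 55.5% of its 0 h mean by 6 h. CCAAT on either strand was in all 6. RefSeq windows of 300 bases (250 before the start and 50 after it) were at hand for 35 of the 42 genes, 45 windows in all. TTTGAA on either strand was in 64.4% of these windows, CCAAT in 75.6% and CGGAAG, a sequence of the kind ETS factors bind, in 40.0%. AURKB and CDC25B, later in the time order than the printed late genes, had windows without TTTGAA. CDC25C, at the early end and also not printed, had a window with it. In all 35116 windows the shares were 15.2%, 34.6% and 19.5%. The 26 genes with TTTGAA had a median change in WT cells of -0.38 at 6 h and -0.74 at 24 h, and the 9 without it of -0.26 and -0.64. The 15 genes with CGGAAG had a median of -0.20 at 6 h and -0.69 at 24 h, and the 20 without it of -0.42 and -0.80. These tallies were made after the values were seen, and a match is a run of letters, not a measured binding site.

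In ΔCRE cells most of the genes also fell. At 24 h 37 of the 42 genes were below their 6 h level, 1 was above it (CDC25C) and 4 did not pass the test (BUB1B, DLGAP5, HMMR and PTTG1). The median change was -0.52 against -0.03 over all features, of which 27.5% were called lower and 22.1% higher. Under TPM 30 of the genes were lower and 1 higher, and the share of higher calls among all calls went from 44.6% to 60.7%. The 3 largest falls were those of UBE2C, CCNA2 and AURKB. UBE2C was 437.8 FPKM at 0 h (replicate 2), 599.5 and 579.4 FPKM at 6 h and 270.2 and 238.2 FPKM at 24 h (24 h against 6 h -1.21 ± 0.079, adjusted p = 1.27e-05), CCNA2 was 32.5 FPKM at 0 h (replicate 2), 24.3 and 24.5 FPKM at 6 h and 12.6 and 12.79 FPKM at 24 h (-0.89 ± 0.071, adjusted p = 3.6e-05), and AURKB was 88.6 FPKM at 0 h (replicate 2), 100.8 and 99.4 FPKM at 6 h and 58.5 and 54.3 FPKM at 24 h (-0.82 ± 0.062, adjusted p = 2.58e-05). None of the 3 had overlapping libraries at 6 and 24 h. CDC25C was 22.3 FPKM at 0 h (replicate 2), 13.03 and 13.4 FPKM at 6 h and 20.6 and 18.4 FPKM at 24 h and rose from 6 to 24 h by 0.52, compared with 0.34 in WT cells. HMMR, at 9.35 FPKM at 0 h (replicate 2), 4.76 and 7.06 FPKM at 6 h and 5.33 and 5.97 FPKM at 24 h, again had overlapping libraries at 6 and 24 h.

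Against the 1 ΔCRE library at 0 h, 22 of the 42 genes were lower and 2 higher (UBE2C and BUB3) at 6 h, and 40 were lower and none higher at 24 h, the exceptions being CDC25C and BUB3. Of all features 13.0% were called lower and 16.8% higher at 6 h, and 21.0% lower and 20.6% higher at 24 h. These counts rest on that library: with the library labelled replicate 1 added to it, 2 and 11 genes were called, and in a fit of only the 2 groups compared 7 were called at 6 h. TPM moved the median of all features in ΔCRE cells at 6 h from 0.002 to -0.128 and that of the members from -0.258 to -0.401. It also raised the number of members called lower there and lowered the share of higher calls among all calls. TOP2A was 152.1 FPKM at 0 h (replicate 2), 83.9 and 86.3 FPKM at 6 h and 48.4 and 55.9 FPKM at 24 h, and KIF20A was 96.7 FPKM at 0 h (replicate 2), 58.5 and 54.2 FPKM at 6 h and 46.6 and 46.0 FPKM at 24 h. Both had lost most of their difference by 6 h, as in WT cells. CDC20, at 176.6 FPKM at 0 h (replicate 2), 158.3 and 152.2 FPKM at 6 h and 104.4 and 92.8 FPKM at 24 h, and FOXM1, at 99.1 FPKM at 0 h (replicate 2), 87.3 and 79.5 FPKM at 6 h and 51.1 and 48.7 FPKM at 24 h, changed mostly after 6 h.

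The changes from 6 to 24 h share no library between the genotypes, so they can be set side by side. Across the 42 genes Pearson's r was 0.903 and Spearman's rho 0.846, and over all 11256 features they were 0.694 and 0.890. These are correlations across genes, which are not independent replicates, and all genes share the same 8 libraries. A test of the difference itself, the interaction of genotype and interval in limma, called none of the 42 genes for 24 h against 6 h and none for 6 h against 0 h, while it called 18 features (0.16%) and 30 features (0.267%) of all. At an unadjusted p under 0.05 the counts were 5 members and 786 features for the first and 4 members and 909 features for the second. These counts are out of 42 members and 11256 features, and the share of members was not tested against that of all features. The 5 members each had an adjusted p of 0.645 or more in the interaction test. They were FOXM1, PLK1, CENPA and ESPL1, with a steeper fall in ΔCRE cells (difference -0.25 for CENPA to -0.22 for ESPL1), and BUB3, with a shallower one (0.15). The 4 members were SPC25 (0.58 ± 0.207, adjusted p = 0.488), NUF2 (0.38), CCNB2 (0.30) and MAD2L1 (0.30), each with a less negative or higher change by 6 h in ΔCRE cells. For SPC25 that change was 0.03 in ΔCRE cells and -0.56 in WT cells. With 2 libraries per group, and only 1 for ΔCRE cells at 0 h, these p-values do not show that the 2 genotypes act alike. The changes by 6 h in ΔCRE cells, that of SPC25 among them, rest on that 1 library at 0 h.

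**Figure D3:**
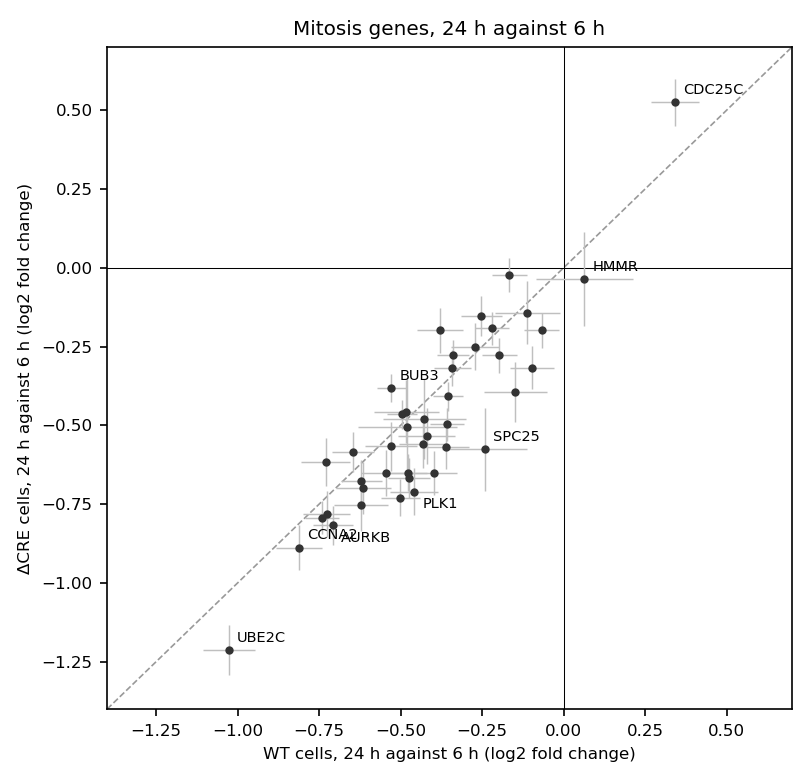
Each point is 1 mitosis gene, with its log2 fold change from 6 to 24 h in WT cells on the x axis and in ΔCRE cells on the y axis, and bars give the standard error from limma (2 libraries per group). The dashed line marks equal change. UBE2C lies at the lower left end (-1.03 and -1.21) and CDC25C at the upper right (0.34 and 0.52).

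Between ΔCRE and WT cells the differences were small and few passed the test. At 6 h 5 of the 42 genes were higher in ΔCRE cells (CDK1, NUF2, CCNB2, BIRC5 and KIF20A), 3 were lower (BUB3, MKI67 and AURKB) and 34 did not pass, with a median of 0.12 against 0.01 over all features. Of all features 3.62% were called higher and 6.22% lower. Both ΔCRE libraries lay above both WT libraries for 28 of the 42 genes and below them for 3, and 29.0% of all features were separated upwards and 25.6% downwards. At 24 h 4 genes were called higher (CDK1, CENPF, CCNB2 and AURKA) and 2 lower (AURKB and BUB3), with a median of 0.09 against 0.01, while 2.35% of all features were called higher and 3.97% lower. Higher calls made up 37.2% of all calls at 24 h with FPKM and 24.7% with TPM. Libraries were separated upwards for 22 genes and downwards for 8, against 26.8% and 25.0% of all features. These counts depended on single libraries. Leaving out 1 library at a time gave 1 to 9 called genes at 6 h, with 1 without WT 6 h replicate 1, 3 without WT 6 h replicate 2 or ΔCRE 6 h replicate 2 and 5 without either WT 24 h library, and 0 to 5 at 24 h, with 0 without WT 24 h replicate 1 or ΔCRE 24 h replicate 2, 1 without either WT 6 h library, WT 24 h replicate 2 or ΔCRE 24 h replicate 1, and 3 without either ΔCRE 6 h library. A fit of each time point by itself called 1 gene (BUB3) at 6 h and none at 24 h, where 16 of the genes were at an unadjusted p under 0.05.

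At 6 h CDK1 was 71.5 and 77.9 FPKM in WT and 100 and 112.8 FPKM in ΔCRE cells (0.50 ± 0.083, adjusted p = 0.0078), and at 24 h it was 46.6 and 49.8 FPKM in WT and 60.8 and 64.5 FPKM in ΔCRE cells (0.37 ± 0.083, adjusted p = 0.0358). CCNB2 was 71.8 and 78.2 FPKM in WT and 96.6 and 95.9 FPKM in ΔCRE cells at 6 h (0.36 ± 0.055, adjusted p = 0.00617) and 71.2 and 71.7 FPKM in WT and 85.3 and 82.2 FPKM in ΔCRE cells at 24 h, where its call (adjusted p = 0.0496) was lost under 19 of 20 alternatives. Both genes had no overlap at either time. The CDK1 call at 6 h was lost without WT 6 h replicate 1 or ΔCRE 6 h replicate 2, and the CCNB2 call at 6 h without WT 6 h replicate 1. The CDK1 call at 24 h held under 9 of 20 alternatives and was lost with TPM and quantile normalization, with no filter, in the fit of that time point by itself, and without any 1 of the 4 libraries of 24 h or either WT 6 h library. NUF2 was 28.7 and 29.5 FPKM in WT and 36.0 and 40.2 FPKM in ΔCRE cells at 6 h (0.38 ± 0.096, adjusted p = 0.0443), and its libraries overlapped at 24 h. The NUF2 call at 6 h held under 8 of 20 alternatives. It was lost with TPM, quantile normalization and no filter, and in the fit of that time point by itself. It was also lost without any 1 of the 4 libraries of 6 h or without either WT 24 h library. SPC25, a subunit of the same kinetochore complex, was 17.2 and 20.03 FPKM in WT and 25.9 and 24.4 FPKM in ΔCRE cells at 6 h and did not pass the test (0.41 ± 0.131, adjusted p = 0.0897). BIRC5 at 6 h was 50.4 and 49.7 FPKM in WT and 60.1 and 63.9 FPKM in ΔCRE cells (0.30 ± 0.058, adjusted p = 0.0141), and KIF20A was 46.2 and 47.8 FPKM in WT and 58.5 and 54.2 FPKM in ΔCRE cells (0.26 ± 0.055, adjusted p = 0.0234). The groups did not overlap for these either, but BIRC5 and KIF20A each lost the call without either WT 6 h library, and also without ΔCRE 6 h replicate 2 (BIRC5) or replicate 1 (KIF20A). CENPF at 24 h was 19.3 and 21.2 FPKM in WT and 24.3 and 25.6 FPKM in ΔCRE cells (0.29 ± 0.064, adjusted p = 0.0357) and AURKA was 78.7 and 82.6 FPKM in WT and 93.0 and 94.5 FPKM in ΔCRE cells (0.22 ± 0.049, adjusted p = 0.0391). Both calls were lost without any 1 of the 8 libraries of 6 and 24 h and with TPM, and that of AURKA also with quantile normalization. They held under 9 (CENPF) and 7 (AURKA) of 20 alternatives. DLGAP5 was 48.0 and 55.8 FPKM in WT and 60.0 and 71.2 FPKM in ΔCRE cells at 24 h, with no overlap and an adjusted p of 0.0998.

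The genes called lower in ΔCRE cells were BUB3, AURKB and MKI67. BUB3 was 177.6 and 181.2 FPKM in WT and 137.8 and 141.5 FPKM in ΔCRE cells at 6 h (-0.36 ± 0.045, adjusted p = 0.00276) and 125.3 and 123.0 FPKM in WT and 107.2 and 106.6 FPKM in ΔCRE cells at 24 h (-0.21 ± 0.045, adjusted p = 0.029). It was also the only gene called at 0 h, with 152.9 and 149.4 FPKM in WT cells and 116.7 FPKM in ΔCRE replicate 2 (-0.37 ± 0.055, adjusted p = 0.0144), where 1.03% of all features were called lower and 0.657% higher. ΔCRE cells were thus below WT cells in BUB3 at all 3 times, and at 6 h the call was lost under 1 of 20 alternatives, the addition of ΔCRE 0 h replicate 1. The 0 h call was lost without WT 0 h replicate 1, and the 24 h call without any 1 of the 4 libraries of 24 h or without either WT 6 h library. AURKB was 118.2 and 118.5 FPKM in WT and 100.8 and 99.4 FPKM in ΔCRE cells at 6 h (-0.24 ± 0.062, adjusted p = 0.0456) and 74.8 and 69.4 FPKM in WT and 58.5 and 54.3 FPKM in ΔCRE cells at 24 h (-0.35 ± 0.062, adjusted p = 0.015). MKI67 was 73.0 and 72.3 FPKM in WT and 62.8 and 53.1 FPKM in ΔCRE cells at 6 h (-0.33 ± 0.075, adjusted p = 0.0303) and 42.8 and 44.1 FPKM in WT and 38.2 and 36.5 FPKM in ΔCRE cells at 24 h (adjusted p = 0.146). The AURKB call at 6 h held under 8 of 20 alternatives and that of MKI67 under 12, and the AURKB call at 24 h was lost without WT 24 h replicate 1 or ΔCRE 24 h replicate 2.

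Several of the genes that differed between the genotypes lay among neighbours on the chromosome that differed in the same direction. For each gene the median difference at 6 h was taken over all tested features within 5 Mb on hg19, a comparison chosen after the values were seen. CDK1 on chromosome 10 (62538089 to 62554610) differed by 0.50, and its 13 neighbours had a median of 0.44, with 61.5% of them called higher. BUB3, further along chromosome 10 (124913760 to 124924886), differed by -0.36, and its 41 neighbours had a median of -0.22, with 34.1% called lower. MKI67 on the same chromosome (129894925 to 129924468) differed by -0.33, with a neighbour median of -0.24 over 24 features, 33.3% of them called lower. AURKB on chromosome 17 (8108049 to 8113944) differed by -0.24, with a neighbour median of -0.22 over 102 features, 34.3% of them called lower. The difference from the neighbours' median was 0.06 for CDK1, -0.017 for AURKB, -0.081 for MKI67 and -0.138 for BUB3. BUB3 thus lay further from its neighbours than the others did. NUF2, CCNB2, BIRC5 and KIF20A differed by 0.26 to 0.38 while their neighbours had medians of 0.02 to 0.03. KIF11, also on chromosome 10, differed by -0.06 with a neighbour median of -0.24. Across the 42 genes the member's difference and its neighbours' median had a Pearson's r of 0.799 and a Spearman's rho of 0.659 at 6 h, and 0.771 and 0.623 at 24 h. This is a description over genes that share the same libraries, and some windows overlap. The part of chromosomal position in the differences between genotypes was not tested.

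**Figure D4:**
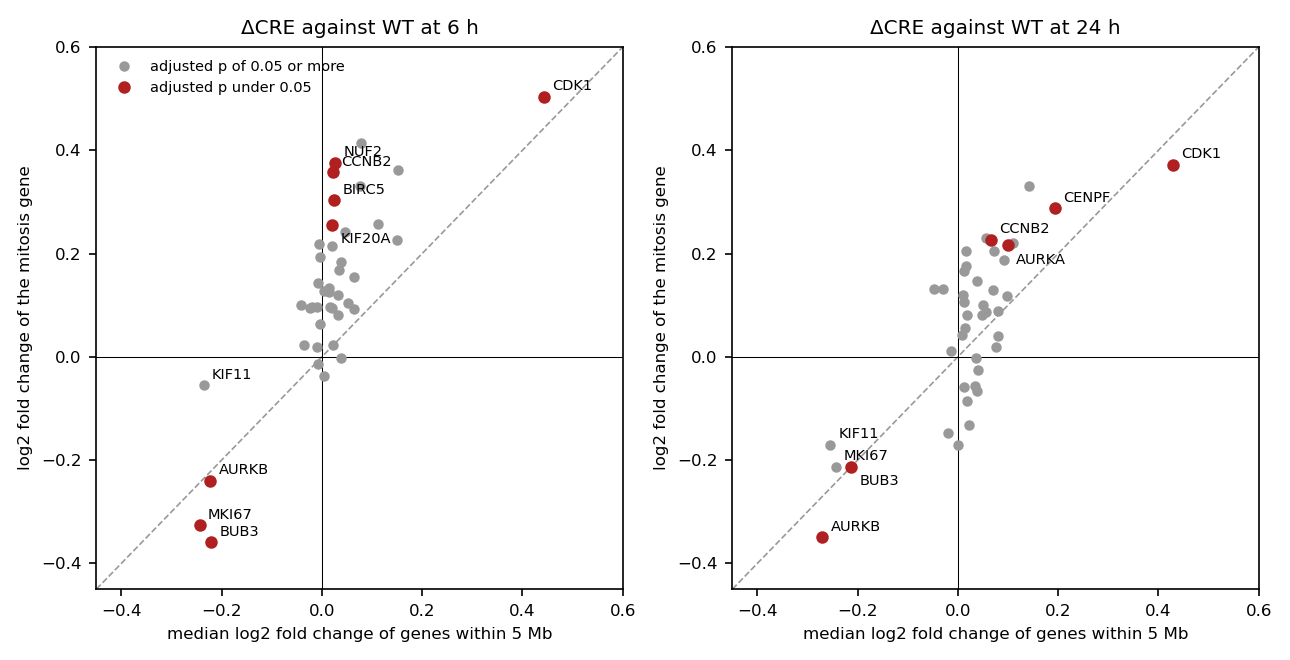
Each point is 1 mitosis gene, with the median ΔCRE against WT log2 fold change of the tested features within 5 Mb on the x axis and its own on the y axis, at 6 h (left) and 24 h (right). Red points were called at an adjusted p under 0.05 and the dashed line marks equal values. CDK1 lies at the upper right near the line, and AURKB and MKI67 lie at the lower left near it. BUB3 is also at the lower left, below the line at 6 h and near it at 24 h. NUF2, CCNB2, BIRC5 and KIF20A stand above a neighbour median near 0.

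A wider list of 99 other mitosis genes, of which 98 were tested, changed mostly in the same direction, with smaller medians. In WT cells 78 were lower and 1 higher at 24 h than at 0 h, with a median of -0.54, and from 6 to 24 h 55 were lower and 3 higher. Of all features 28.2% were called lower and 26.5% higher in the first comparison and 26.3% and 20.5% in the second. At 6 h 43 were lower and 7 higher, with a median of -0.20, where 21.1% and 23.3% of all features were called lower and higher. OIP5, which helps load CENPA, had the largest fall at 6 h on the log2(FPKM + 1) scale (-0.96 ± 0.059, adjusted p = 5.92e-06), followed by the kinesins KIF20B (-0.79) and KIF18A (-0.76). CCNF (0.35), CENPO (0.29) and PKMYT1 (0.27) rose at 6 h, and CCNF fell by 0.90 afterwards. Genes of condensin and cohesin, which shape and hold chromatids, fell in 15 of 16 cases by 24 h, with a median of -0.62. Of 12 subunits of the anaphase-promoting complex itself, 4 (33.3%) were lower and 1 was higher at 24 h, with a median of -0.14, a share of lower calls near the 28.2% of all features. The 1 that was higher was CDC26 (0.27 ± 0.048, adjusted p = 0.00163). Between the genotypes 8 of the 98 genes were higher and 1 was lower at 6 h, where 3.62% of all features were called higher and 6.22% lower. ZWINT, a kinetochore gene on chromosome 10 (58117199 to 58121034), differed by 0.53 with a neighbour median of 0.45, whereas CDCA3 differed by 0.39 and CDC16 by 0.44 with neighbour medians of 0.02 and 0.03.

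Genes of DNA replication, which peak in S phase, also fell. Of 50 tested, 46 were lower and none higher at 24 h in WT cells, with a median of -0.48 against -0.72 for the 42 mitosis genes and -0.02 over all features, of which 28.2% were called lower. At 6 h 22 were lower and 3 were higher (POLE, MCM7 and CDC45), with a median of -0.15. Of all features 21.1% were called lower and 23.3% higher at 6 h. RRM2, a subunit of ribonucleotide reductase, was highest at 6 h, with 108.5 and 114.2 FPKM at 0 h, 119.2 and 119.8 FPKM at 6 h and 52.9 and 53.1 FPKM at 24 h. Its fall from 6 to 24 h was the largest among replication genes on that scale (-1.16 ± 0.049, adjusted p = 1.55e-06). CDC7, the kinase that fires origins, instead fell early (-0.79 ± 0.099 at 6 h, adjusted p = 0.000338). TTTGAA was in 37.2% of 113 promoter windows of the other mitosis genes and in 3.7% of 54 windows of the replication genes, and CCAAT in 52.2% and 55.6%.

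The mitosis genes of ΔCRE 0 h replicate 1, the library that stood apart, were far from those of the other libraries, as were most features. Of the 42 genes 22 lay below all 11 other libraries, 5 lay above all of them (CCNB2, CDC25B, PTTG1, BIRC5 and SPC25) and 15 lay within their range. Of all features tested 36.1% lay below and 35.0% above all 11 other libraries. These positions and the values below are FPKM as deposited, not rescaled for the larger FPKM sum of this library (1423335). As a share of that sum the 42 genes made up 0.22%, against 0.382% to 0.67% in the other 11 libraries. Levels above the other libraries can therefore not be read as a higher share of the RNA. ANLN was 16.4 FPKM in it against 108.6 FPKM in replicate 2, INCENP was 5.07 against 32.5 FPKM, and PTTG1 was 878.8 against 480.1 FPKM. The median log2 difference from replicate 2 was -0.98, with a range of -2.65 to 0.87. Between the replicates of the other 5 groups no mitosis gene differed by more than 0.49.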

How the data were processed

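RNA from WT and ΔCRE MDA-MB-231 cells was sequenced as stranded, poly(A)-selected libraries. The authors aligned reads to hg19 with TopHat and obtained the deposited FPKM values with Cufflinks, with 1 column per library. Whether libraries were scaled to each other is not given in the sources used here. Columns were matched to samples by name, and in 2 column names a digit 1 stands for the letter H.

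From these values log2(FPKM + 1) was fitted with limma 3.58.1 in R 4.3.3 (lmFit, then eBayes with a trend) over 11 libraries in 6 groups (5 residual degrees of freedom) and 11256 features with a mean of at least 1 FPKM. The library labelled ΔCRE 0 h replicate 1 was left out. P-values were adjusted by Benjamini-Hochberg over all features, and 0.05 was the threshold. The code was tested on simulated data. The fit was repeated with 0.1 in place of the pseudocount of 1, without the filter on low values, at a mean of at least 5 FPKM, on TPM, after quantile normalization, on only the groups compared, with a block for the replicate number, without the eBayes trend, on all 12 libraries, and with each library left out.

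The members and lists were chosen with earlier results of these data known. Genes were named for their role and for the largest changes in each comparison.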

Additional observations from a re-analysis of the deposited data

Results flagged for a closer look

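The library labelled ΔCRE 0 h replicate 1 held a signal outside the comparisons. The 9 gut epithelium markers summed to 3654 FPKM in it, against 2.18 to 3.41 FPKM in the other 11 libraries. The part of this signal in the levels of the mitosis genes in that library was not tested.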

How the results depend on the processing

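Depth is unknown and each group has at most 2 libraries, so small differences between genotypes were the least stable. With the library labelled ΔCRE 0 h replicate 1 added (12 libraries), the called members and all called features were 5 and 857 for WT 6 h against 0 h, 15 and 1221 for WT 24 h against 0 h, 4 and 582 for WT 24 h against 6 h, 8 and 845 for ΔCRE 24 h against 6 h, 2 and 1011 for ΔCRE 6 h against 0 h, 11 and 1302 for ΔCRE 24 h against 0 h, and 0 and 17, 0 and 20, and 0 and 17 for ΔCRE against WT at 0, 6 and 24 h, where limma gave 4, 4 and 2 members at an unadjusted p under 0.05. The interactions then had 0 features (24 h against 6 h, with 81 at an unadjusted p under 0.05) and 4 features (6 h against 0 h). The added library reversed the member median of ΔCRE 6 h against 0 h (0.088) and of ΔCRE against WT at 0 h (-0.435).

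It also reversed called members. At 6 h against 0 h in ΔCRE cells these were CCNA2 (0.097), FOXM1 (0.079), BUB1 (0.465), BUB1B (0.414), CENPF (0.66), TPX2 (0.267), KIF11 (0.06), KIF4A (0.183), NUSAP1 (0.355), DLGAP5 (0.041), PRC1 (0.788), KIF20A (0.025), ANLN (0.806) and TOP2A (0.056). At 24 h against 0 h they were BUB1 (0.266), BUB1B (0.391), ESPL1 (0.379), INCENP (0.407), CENPE (0.085), CENPF (0.075), PRC1 (0.323), ANLN (0.131), ECT2 (0.445) and MKI67 (0.011).

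Fitting only the groups compared gave 7 members and 1320 features for ΔCRE 6 h against 0 h, 0 and 43, 1 and 364, and 0 and 132 for ΔCRE against WT at 0, 6 and 24 h (1, 20 and 16 members at an unadjusted p under 0.05), and 9 features for the interaction of 24 h against 6 h. That interaction had 11 features under quantile normalization and 8 under eBayes without trend. With no filter 5 members were called at 6 h between genotypes and 47 features in the interaction of 6 h against 0 h. At 24 h between genotypes TPM, quantile normalization and eBayes without trend each called 3 members. Of all 11256 features these settings called 180, 317 and 247 higher and 548, 539 and 423 lower. With no filter the comparison of genotypes at 6 h called 341 of 17700 features higher and 672 lower. The cause of these shifts was not tested.

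Whether same-numbered libraries were prepared together is not given in the sources used here. Their deviations correlated between -0.068 and 0.202 over 10 pairs of groups, which does not exclude a shared effect of the replicate number. With the replicate block 7 members and 655 features were called between genotypes at 0 h, 17 and 1805 at 6 h, 1407 features at 24 h and 72 features in the interaction of 6 h against 0 h.

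Leaving out 1 library at a time gave ranges of called members, then of called features, of 26 to 33 and 3492 to 4990 (WT 6 h against 0 h), 40 to 42 and 4667 to 6148 (WT 24 h against 0 h), 29 to 36 and 3743 to 5408 (WT 24 h against 6 h), 32 to 39 and 4246 to 5724 (ΔCRE 24 h against 6 h), 18 to 24 and 2631 to 3473 (ΔCRE 6 h against 0 h), 38 to 40 and 3609 to 4788 (ΔCRE 24 h against 0 h), 0 to 1 and 106 to 159 (genotypes at 0 h), 1 to 9 and 321 to 1097 (6 h), and 0 to 5 and 165 to 717 (24 h). The interactions ranged over 3 to 21 features (24 h against 6 h) and 26 to 37 (6 h against 0 h), with 0 members in each.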
